A study of Mus musculus with 8 samples.

Results

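The microRNAs (miRNAs) mmu-miR-150-5p, mmu-miR-155-5p, mmu-miR-342-3p, mmu-miR-342-5p, mmu-miR-181a-5p and mmu-miR-181b-5p, known for their roles in lymphocytes, were followed in whole kidneys of tacrolimus-treated and control mice. The prefix mmu (mouse) is left out from here on. They were taken by name, with every probe of each, as 6 of the 1023 mouse miRNA names on the array. The study measured kidney miRNAs on one-colour (Cy3) Agilent arrays in CD-1 mice, an outbred stock. For labelling, the submitters name a kit meant for mRNA and do not say how it was applied to miRNA. One group of 4 samples came from mice that received tacrolimus at 1 mg/kg per day for 28 days, and the other 4 came from control mice given physiological serum. Each sample is total RNA of whole kidney, with 0.1 µg taken in and an RNA integrity number of 9. Neither the age and sex of the mice nor whether each replicate is a separate mouse is given in the sources used here, so each p-value reflects the scatter of these 8 samples alone, part or all of which could be technical.

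A miRNA is a short RNA that guides Argonaute proteins to messenger RNAs, mainly through its seed, bases 2 to 8 from its 5′ end, and lowers the output of the messages it pairs with. miR-150 is abundant in mature B and T cells and restrains the transcription factor Myb. miR-155 is cut from the transcript Mir155hg (also called BIC), which is induced when lymphocytes and macrophages are activated, and Socs1 is among its targets. miR-342 is processed from within Evl, a gene of actin regulation, and is found in lymphoid and myeloid cells. miR-181a is high in thymocytes, where it raises the sensitivity of T cell receptor signalling by restraining phosphatases, and miR-181b is made from the same clusters; both are also made in many tissues outside the immune system. Tacrolimus blocks calcineurin, the phosphatase that frees NFAT to enter the nucleus in stimulated T cells.

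The mature sequences are shown because they set which miRNAs can share targets and which probes can share signal. They come from RefSeq (GRCm38.p6), which matched 5 of the 6 names, and the capitals mark the seed. The relatives miR-181c-5p and miR-181d-5p of miR-181a and miR-181b are added for comparison.
miR-155-5p: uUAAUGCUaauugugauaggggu
miR-342-3p: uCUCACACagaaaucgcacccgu
miR-342-5p: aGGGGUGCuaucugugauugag
miR-181a-5p: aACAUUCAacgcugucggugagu
miR-181b-5p: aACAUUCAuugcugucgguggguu
miR-181c-5p: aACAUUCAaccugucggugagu
miR-181d-5p: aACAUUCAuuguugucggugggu
The 4 miR-181 miRNAs share the seed ACAUUCA, while miR-155-5p, miR-342-3p and miR-342-5p each have a seed of their own. Read from the 5′ end, miR-181a-5p and miR-181b-5p differ at 3 of 23 bases, and miR-181b-5p and miR-181d-5p at 1 of 23.

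The probes are DNA and pair with the 3′ part of a miRNA, and those of miR-181a-5p and miR-181b-5p cover 0 bases of the seed. Those that gave the values below are shown for miR-155-5p, miR-342-3p and the miR-181 pair, from the deposited files, with capitals on the bases that do not pair with the other miRNA of that pair.
miR-155-5p probe of 18 bases: acccctatcacaattagc
miR-342-3p probe of 17 bases: acgggtgcgatttctgt
miR-342-3p probe of 16 bases: acgggtgcgatttctg
miR-181a-5p probe of 14 bases: acTcaccgacagcG
miR-181b-5p probe of 14 bases: acCcaccgacagcA
The miR-181a-5p probe has 2 mismatches to miR-181b-5p and 2 to miR-181c-5p, and the miR-181b-5p probe has 2 to miR-181a-5p and 1 to miR-181d-5p. Signal from one miRNA on the probe of another is possible at so few mismatches, and the miR-181 values are uncertain as separate measurements. The files place the miR-155-5p probe at chr16:84714394-84714410 of the mouse build mm9. The miR-181a-5p probe is placed at chr1:139863054-139863067 and chr2:38708270-38708283, and the miR-181b-5p probe at chr1:139863236-139863249 and chr2:38709374-38709387, since each of these miRNAs is made from 2 genes. In the RefSeq gene table Mir155 lies within Mir155hg, Mir342 within Evl, and Mir181a-2 and Mir181b-2 within Nr6a1 and Nr6a1os, while Mir150, Mir181a-1 and Mir181b-1 lie within no other listed gene.

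Between 147 and 220 miRNAs were detected per array, and 194 miRNAs, detected on at least 4 of the 8 arrays, were tested. Arrays correlated at 0.987 to 0.997 over these. Tacrolimus 4 was the array with the smallest number of detected miRNAs, 147, and its negative control spots scattered most (SD 20.01 intensity units), against 10.5 for control 1, 9.69 for control 3 and 4.45 to 5.46 for the others. It was the 1 array that the scanner software put outside its quality range. The tacrolimus arrays filled row 2 of the slide and the control arrays row 1, so an effect of the row and one of the drug cannot be told apart. Values are log2 scaled signals, on which 0 is an array's 75th percentile over the 252 probes that every array detected and -5.96 is the floor given to dimmer signals, and levels of different miRNAs cannot be compared because their probes differ.

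No lymphocyte miRNA passed the test for a change after tacrolimus. Of the 6 miRNAs, 5 were measurable and were tested, and 0 of them passed the threshold (limma, adjusted p under 0.05), where 3.09% of all tested miRNAs did. At an unadjusted p under 0.05 there were also 0 of 5, against 15.5% of all tested. That count was 2 without control 1 and 0 or 1 in every other alternative. In each of the 5, tacrolimus and control arrays overlapped, while 10.3% of all tested miRNAs had groups that did not overlap. The mean difference was above 0 for 5 of 5, where 59.3% of all tested miRNAs lay above 0, and the median difference (tacrolimus minus control) was 0.25 over the 5 and 0.04 over all 194. These differences run from 0.10 for miR-181a-5p to 1.07 for miR-342-3p on the log2 scale. In whole kidney, a change in the number of cells of a type and a change in RNA per cell cannot be told apart.

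**Figure D1:**
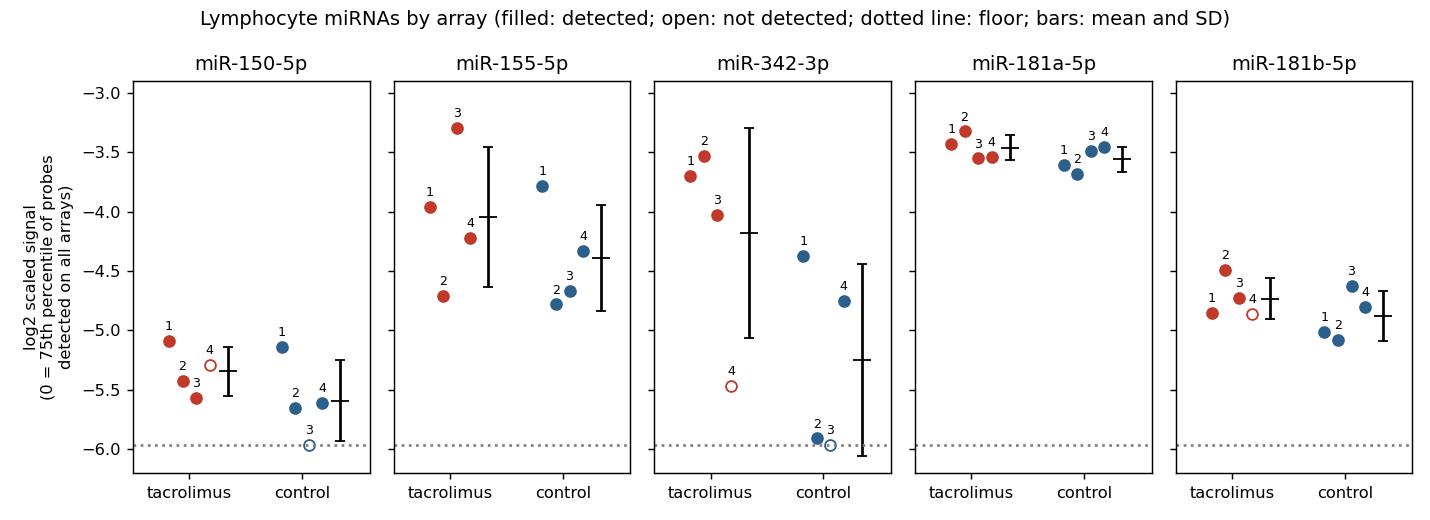
Log2 scaled signal (vertical axis; 0 is the 75th percentile, on that array, of the probes detected on all 8 arrays) of the 5 tested lymphocyte miRNAs on the 4 tacrolimus arrays (left, red) and the 4 control arrays (right, blue), numbered by replicate, with the mean and SD of each group as bars. Filled points are detected, open points are not, and the dotted line is the floor at -5.96; the groups overlap in every panel, most narrowly spread for miR-181a-5p and most widely for miR-342-3p.

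miR-150-5p, the miRNA of resting mature lymphocytes, was close to the limit of detection. It stood at -5.09, -5.43, -5.57 and -5.29 on tacrolimus arrays 1 to 4, and at -5.14, -5.65, -5.96 and -5.61 on control arrays 1 to 4, the control 3 value being at the floor. The highest value of each group came from replicate 1, and the groups overlapped. It was detected on 3 of 4 tacrolimus arrays and 3 of 4 control arrays. The means were -5.35 ± 0.21 after tacrolimus and -5.59 ± 0.34 in controls (SD, n = 4 arrays each). The groups differed by 0.25 (SE 0.169), short of the threshold (limma, adjusted p = 0.535), and the 95% interval of -0.14 to 0.63 covers changes in both directions. Its second probe was detected on 0 of the 8 arrays and lay at the floor on all of them. Since the floor compresses dim values, the difference of this miRNA is less certain than its SE; leaving out control 1 gave 0.40 and leaving out control 3 gave 0.12.

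miR-155-5p, the activation-induced miRNA, was detected on all 8 arrays and varied more within groups than between them. Tacrolimus arrays 1 to 4 gave -3.96, -4.71, -3.29 and -4.22, and control arrays 1 to 4 gave -3.78, -4.78, -4.67 and -4.33. Tacrolimus 3 was the highest array and control 1 the next, and tacrolimus 2 lay among the lowest controls. The group means were -4.05 ± 0.59 after tacrolimus and -4.39 ± 0.45 in controls (SD, n = 4 each). This is a difference of 0.34 (SE 0.304, limma adjusted p = 0.646), with a 95% interval of -0.34 to 1.03. It rested on single arrays, at 0.09 without tacrolimus 3 and 0.56 without tacrolimus 2. The second probe, of 17 bases, was detected on 2 arrays, tacrolimus 1 and tacrolimus 3, and was at the floor on 5.

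miR-342-3p had the largest difference of the 5 and the widest spread. It stood at -3.70, -3.53, -4.03 and -5.47 on tacrolimus arrays 1 to 4, and at -4.37, -5.91, -5.96 and -4.75 on control arrays 1 to 4. Tacrolimus 1, 2 and 3 lay above every control array, and tacrolimus 4 lay below control 1 and control 4. The means were -4.18 ± 0.88 after tacrolimus and -5.25 ± 0.81 in controls (SD, n = 4 each). Control 3 was at the floor, and control 3 and tacrolimus 4 were not detected. The groups differed by 1.07 (SE 0.487), short of the threshold (limma, unadjusted p = 0.0555, adjusted p = 0.347), and the 95% interval was -0.03 to 2.17. This size depends on the dim end of the scale, at 0.708 with a floor 2 times as high and 1.71 with the software's total gene signal. By unadjusted p it ranked 31 of the 194 tested miRNAs.

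The tacrolimus array that lay low for miR-342-3p was the one with the widest scatter of negative controls. On tacrolimus 4 the 17-base probe read 49.9 intensity units before scaling and was not called detected, whereas a reading of 31.8 on control 2 was; the SD of the negative control spots was 20.01 on tacrolimus 4 and 4.95 on control 2. Without tacrolimus 4 the difference was 1.498 (SE 0.385, limma unadjusted p = 0.0042, adjusted p = 0.108), still short of the threshold, and over all alternatives the adjusted p ran from 0.0523 to 0.995. Unscaled, the 17-base probe averaged 172, 196, 101 and 49.9 over its spots on tacrolimus arrays 1 to 4, and 122, 31.8, 13.9 and 64.5 on control arrays 1 to 4.

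The 16-base probe of the same miRNA gave the same order of arrays except for tacrolimus 4 and for control 2 and control 3, which tied at the floor. Its log2 scaled signals were -4.39, -4.16, -4.68 and -5.02 on tacrolimus arrays 1 to 4, and -5.01, -5.96, -5.96 and -5.37 on control arrays 1 to 4. Here only tacrolimus 4 reached into the control range, falling just below control 1. With this probe in place of the other the difference was 1.01 (SE 0.246, limma unadjusted p = 0.00243, adjusted p = 0.0523). On tacrolimus 4 its 19 kept spots were uneven, running from -4.19 to 264 intensity units with a median of 37.1 and a mean of 68.3 (SD 70.7), so that its mean there rests on a few bright spots. The highest SD of this probe on any other array was 11.2.

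**Figure D2:**
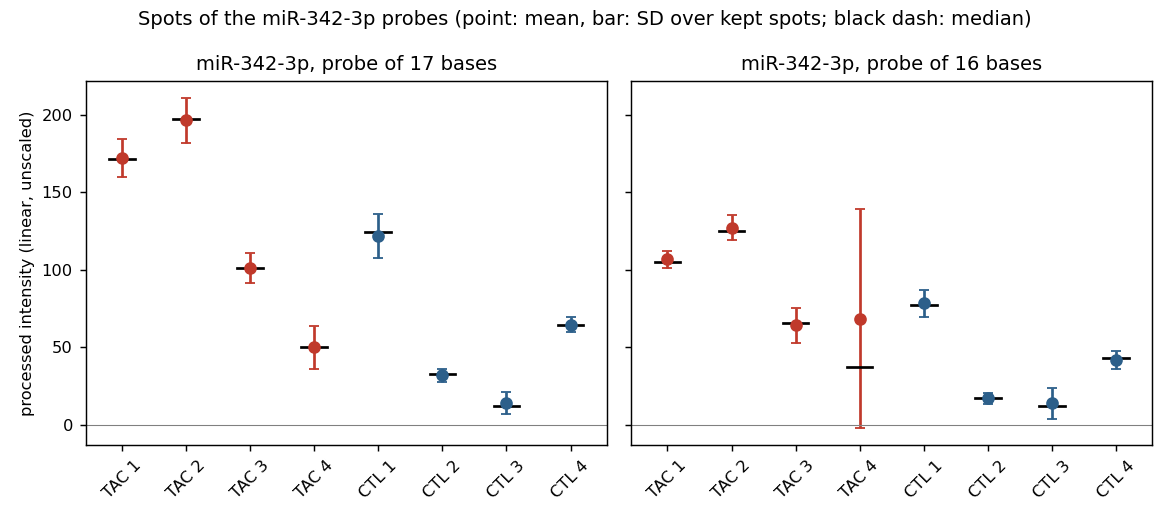
Unscaled processed intensity (linear, vertical axis) of the 17-base probe (left panel) and the 16-base probe (right panel) of miR-342-3p on tacrolimus arrays (TAC 1 to 4) and control arrays (CTL 1 to 4). Points are means and bars SDs over kept spots, and black dashes are medians; tacrolimus 4 has a mean of 68.3 and a median of 37.1 on the 16-base probe.

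miR-342-5p, the other arm of the same hairpin, was not measurable in these kidneys. Its 4 probes were detected on 0 of 8 arrays. Well above background were 0 of 145 kept spots on the tacrolimus arrays and 1 of 147 on the control arrays. Probe means ran from -16.4 to 8.71 intensity units on tacrolimus arrays and from -3.15 to 11.04 on control arrays. It had no level that could be compared between groups, and was not tested.

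miR-181a-5p was the steadiest of the measurable lymphocyte miRNAs. Tacrolimus arrays 1 to 4 gave -3.43, -3.32, -3.55 and -3.54, and control arrays 1 to 4 gave -3.61, -3.69, -3.49 and -3.45. The 2 highest values were tacrolimus 2 and tacrolimus 1, the 2 lowest were control 2 and control 1, and the rest interleaved. The means were -3.46 ± 0.11 after tacrolimus and -3.56 ± 0.11 in controls (SD, n = 4 each), a difference of 0.10 (SE 0.0815, limma adjusted p = 0.636). The 95% interval of -0.09 to 0.28 leaves out a rise or fall by 2-fold. Its 13-base probe differed by 0.03 (SE 0.112).

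miR-181b-5p, from the same clusters, lay nearer the floor, with -4.85, -4.49, -4.73 and -4.86 on tacrolimus arrays 1 to 4 and -5.01, -5.08, -4.63 and -4.80 on control arrays 1 to 4. As for miR-181a-5p, tacrolimus 2 was highest and control 2 lowest, and the groups overlapped. The means were -4.73 ± 0.17 after tacrolimus and -4.88 ± 0.21 in controls (SD, n = 4 each). They differed by 0.14 (SE 0.121), short of the threshold (limma, adjusted p = 0.636), with a 95% interval of -0.13 to 0.42. It was detected on 3 of 4 tacrolimus arrays and 4 of 4 control arrays, and its 13-base probe differed by 0.11 (SE 0.131).

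The signs of the 3 smallest differences depended on the background correction or the summary of spots. With a normexp background, miR-150-5p stood at -0.0519, miR-181b-5p at -0.0387 and miR-181a-5p at -0.000135 (tacrolimus minus control), and with the software's total gene signal miR-181b-5p stood at -0.0983 and miR-181a-5p at -0.0631. Of the 2 others, miR-342-3p stayed above 0 at 0.44 with normexp and over all alternatives, and so did miR-155-5p.

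The lymphocyte miRNAs differed widely in how far replicate arrays scattered. The within-group SD over arrays was 0.846 for miR-342-3p, the widest of the 194 tested miRNAs, and 0.524 for miR-155-5p, the third widest. It was 0.281 for miR-150-5p, 0.190 for miR-181b-5p and 0.107 for miR-181a-5p, against a median of 0.133 over all tested. The SE of an array's spot mean, which holds the error of repeat spots alone, had a median of 0.037 and a maximum of 0.173 for miR-342-3p on the log2 scale. That maximum is from control 3, where the signal lay below the floor, and the SD of 0.846 takes in the floor value instead. For miR-155-5p the median was 0.024 and the maximum 0.065, and for miR-150-5p they were 0.067 and 0.108, over 14 to 20 kept spots per array.

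**Figure D3:**
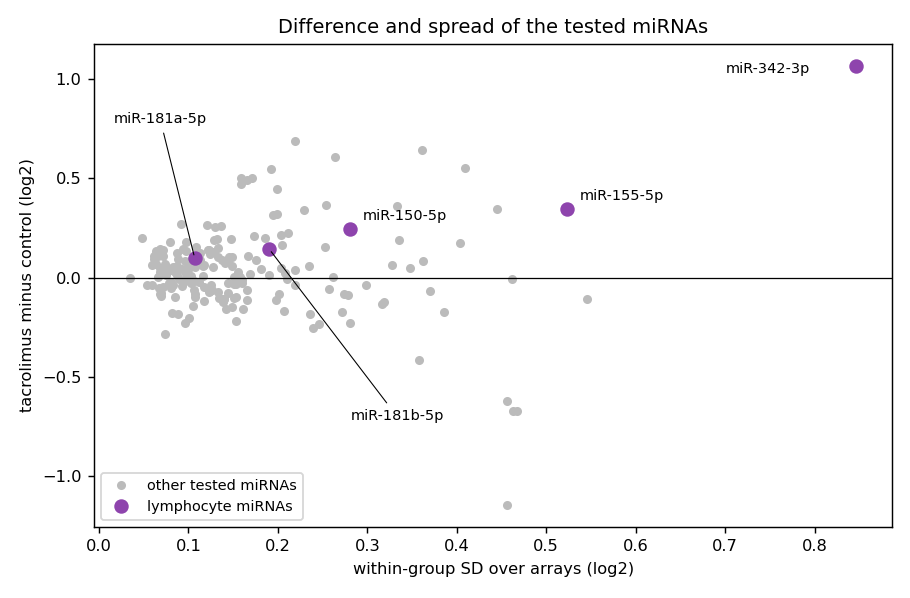
Difference between groups (tacrolimus minus control, log2, vertical axis) against the SD over arrays within groups (log2, horizontal axis) for the 194 tested miRNAs, with the 5 lymphocyte miRNAs in purple. miR-342-3p has the widest SD (0.846) and a difference of 1.07, miR-155-5p has the third widest SD (0.524), and miR-181a-5p lies among the bulk with an SD of 0.107.

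Averaged over the 5 miRNAs, the log2 scaled signal was -4.21, -4.30, -4.23 and -4.68 on tacrolimus arrays 1 to 4, and -4.38, -5.02, -4.94 and -4.59 on control arrays 1 to 4. The 3 highest arrays were tacrolimus 1, 3 and 2, and tacrolimus 4 fell below control 1 and control 4. miR-342-3p, which has the widest spread (SD 0.846), shows the same 3 arrays on top and tacrolimus 4 in the same place. This order of the means therefore need not hold for the other miRNAs. The lymphocyte miRNAs did not vary as one group across arrays. Over the 8 arrays, which share the same scaling, miR-181a-5p and miR-181b-5p correlated at r = 0.83 (0.80 after removing group means), and miR-150-5p and miR-342-3p at 0.60 (0.46). miR-155-5p and miR-181a-5p correlated at -0.17 (-0.40), and miR-150-5p and miR-181b-5p at -0.33 (-0.63). These are descriptions of 8 arrays.

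Leaving the lymphocyte miRNAs themselves out of the search, the 3 tested miRNAs most like each of them were found by Pearson correlation of log2 scaled signal over the 8 arrays. Picked as the highest of many correlations over few arrays, such values can be high from the picking alone, and they were not tested. For miR-342-3p the 3 were miR-340-5p (r = 0.93), miR-146a-5p (0.88) and miR-15a-5p (0.84). The nearest to miR-155-5p were miR-27b-3p (0.78), miR-126a-5p (0.78) and miR-210-3p (0.72), and to miR-150-5p miR-20a-5p (0.86), miR-195a-5p (0.81) and miR-100-5p (0.79). Outside the set miR-181a-5p was nearest to miR-500-3p (0.90), miR-181c-5p (0.89) and miR-132-3p (0.82), with miR-181b-5p at 0.83 inside it, and miR-181b-5p to miR-652-3p (0.96), miR-503-5p (0.86) and miR-500-3p (0.85).

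The other arms and seed relatives of these miRNAs were mostly below detection. Of 10 listed (the other arms of miR-150, miR-155 and the miR-181 genes, with miR-181c-5p and miR-181d-5p), 8 were detected on no array and 1 was tested. That one, miR-181c-5p, gave -5.27, -5.10, -5.44 and -5.37 on tacrolimus arrays 1 to 4 and -5.35, -5.54, -5.16 and -5.24 on control arrays 1 to 4. Its groups interleaved, and the difference was 0.03 (SE 0.104, limma adjusted p = 0.899). miR-181d-5p was detected on 2 tacrolimus arrays and 0 control arrays, at or close to the floor throughout, and was not tested.

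Other leukocyte miRNAs were higher on average after tacrolimus, though none passed the threshold. Of 6 listed, 4 were tested, 0 passed the adjusted threshold, and 4 of 4 had an unadjusted p under 0.05 in the higher direction, where 10.8% of all tested miRNAs did. The list was chosen with earlier results of these data known, so the count is not a test against that share. The 4 include both arms of the same hairpin, miR-142a-3p and miR-142a-5p, which correlated at r = 0.99 over the 8 arrays. The median difference was 0.58. The count under 0.05 was 2 of 4 without control 2, control 3, control 4, tacrolimus 1 or tacrolimus 2. It was 2 of 4 with scaling to the median, and 0 with scaling to the percentile of all probes. miR-223-3p, a miRNA of granulocytes and monocytes, stood at -1.63, -1.32, -2.06 and -1.60 on tacrolimus arrays 1 to 4 and at -2.04, -2.13, -2.35 and -2.52 on control arrays 1 to 4. Only tacrolimus 3 reached into the control range, just below control 1. The difference was 0.61 (SE 0.161, limma adjusted p = 0.0911).

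miR-142a-3p, made in blood cells of nearly every lineage, stood at -1.54, -1.39, -1.79 and -1.996 on tacrolimus arrays 1 to 4 and at -1.78, -2.17, -2.66 and -2.69 on control arrays 1 to 4. Control 1 lay among the tacrolimus arrays and the other controls below them. The difference was 0.64 (SE 0.213, limma adjusted p = 0.191), and 0.55 (SE 0.240, adjusted p = 0.301) for its other arm, miR-142a-5p. miR-146a-5p, which is induced by NF-kappaB and restrains Traf6 and Irak1, stood at -2.40, -2.30, -2.61 and -2.92 on tacrolimus arrays 1 to 4 and at -2.81, -2.87, -2.96 and -2.86 on control arrays 1 to 4. As with miR-342-3p, 3 tacrolimus arrays lay above every control and tacrolimus 4 lay within the control range. The difference was 0.32 (SE 0.126, limma adjusted p = 0.273). miR-146b-5p was detected on 3 tacrolimus arrays and 0 control arrays and was not tested, and miR-223-5p was never detected.

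Summed scaled levels (linear, detected miRNAs only) of the other leukocyte miRNAs were 0.754 to 1.08 on tacrolimus arrays and 0.483 to 0.731 on control arrays. These ranges do not overlap, although each of the 4 tested miRNAs had overlapping groups. For miR-223-3p, miR-142a-3p and miR-142a-5p alone the sums do overlap, at 0.577 to 0.847 on tacrolimus arrays and 0.354 to 0.589 on control arrays. Undetected miRNAs count as 0, so miR-146b-5p enters on tacrolimus arrays only. Sums are set side by side between groups within a list, not between lists, since probes differ. For the lymphocyte miRNAs the same sum was 0.139 to 0.307 on tacrolimus arrays and 0.169 to 0.262 on control arrays, ranges that overlap. The lower end, tacrolimus 4, counts 2 of the 5 miRNAs, since 3 were not detected there. With undetected values kept in, the sums were 0.222 to 0.307 on tacrolimus arrays and 0.180 to 0.262 on control arrays. Over the 8 arrays miR-142a-3p correlated with miR-342-3p at r = 0.75 (0.59 within groups) and with miR-150-5p at 0.72 (0.64), and with miR-155-5p at 0.33 (0.12). The erythrocyte miRNAs were lower on average after tacrolimus. Of 4 listed, 3 were tested and 0 passed, and the list too was chosen with earlier results of these data known. At an unadjusted p under 0.05, 3 of 3 miRNAs were lower, against 4.64% of all tested. Their median difference was -0.67, and their summed levels were 1.86 to 2.50 on tacrolimus arrays and 2.08 to 5.84 on control arrays. Each of the 3 had overlapping groups. On control 4, miR-451a (1.01) and miR-486a-5p (-5.86) lay within the range of the tacrolimus arrays, and miR-144-3p (-4.02) lay below it. miR-486a-5p was detected on 5 arrays only. Whether the 3 vary apart from one another was not tested. Kidney tubule miRNAs summed to 11.2 to 12.03 on tacrolimus arrays and 10.9 to 11.8 on control arrays, with miR-215-5p at no detection. Of the 5 tubule miRNAs tested, 4 lay above 0 (59.3% of all tested) and 0 passed the threshold, with a median difference of 0.13. Only miR-204-5p was higher at an unadjusted p under 0.05 (10.8% of all tested), by 0.34 (limma unadjusted p = 0.0388, adjusted p = 0.289). Endothelial miRNAs summed to 3.56 to 3.79 on tacrolimus arrays and 3.44 to 4.09 on control arrays, and the median difference of the 2 was 0.01. The liver marker miR-122-5p was detected on 0 arrays. The part of blood content in the lymphocyte values was not tested.

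Among miRNAs linked to T cell activation, 1 passed the threshold, and its call was lost in most alternatives. Of 6 listed, 4 were tested, 1 passed the threshold upward, as 3.09% of all tested miRNAs did, and 0 downward, and their median difference was 0.38. For 2 of the 4 the groups did not overlap, with tacrolimus higher, where 8.25% of all tested miRNAs did. This list too was chosen with earlier results of these data known, so neither count is a test against its share. miR-214-3p, which in T cells is induced by stimulation, stood at -4.15, -3.58, -4.16 and -4.04 on tacrolimus arrays 1 to 4 and at -4.78, -4.63, -4.48 and -4.79 on control arrays 1 to 4. All tacrolimus arrays lay above all controls, and the groups differed by 0.69 (SE 0.137, limma adjusted p = 0.0476). The call held in 6 of 21 alternatives. It was lost without any 1 of the controls, without tacrolimus 1 or tacrolimus 4, and with a normexp background. The array number as a replicate block (limma adjusted p = 0.0607), no filter, no scaling and scaling to the percentile of all probes lost it too. So did the mean of probes, total gene signal, trend and robust fitting, and the median of kept spots. With normexp the difference was 0.30, and over all alternatives the adjusted p ran from 0.031 to 0.995.

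miR-21a-5p, an abundant miRNA that is raised in activated T cells and also in injured tissue, stood at 3.35, 3.47, 3.04 and 3.11 on tacrolimus arrays 1 to 4 and at 2.89, 2.81, 2.96 and 2.52 on control arrays 1 to 4. Its groups did not overlap, and they differed by 0.45 (SE 0.126, limma adjusted p = 0.104). miR-132-3p differed by 0.09 (SE 0.114, limma adjusted p = 0.736), and miR-146a-5p is given above. miR-182-5p and miR-31-5p were detected on too few arrays to be tested. Both miR-214-3p and miR-21a-5p are made by many kidney cells, and their values here say nothing of which cells carried them.

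**Figure D4:**
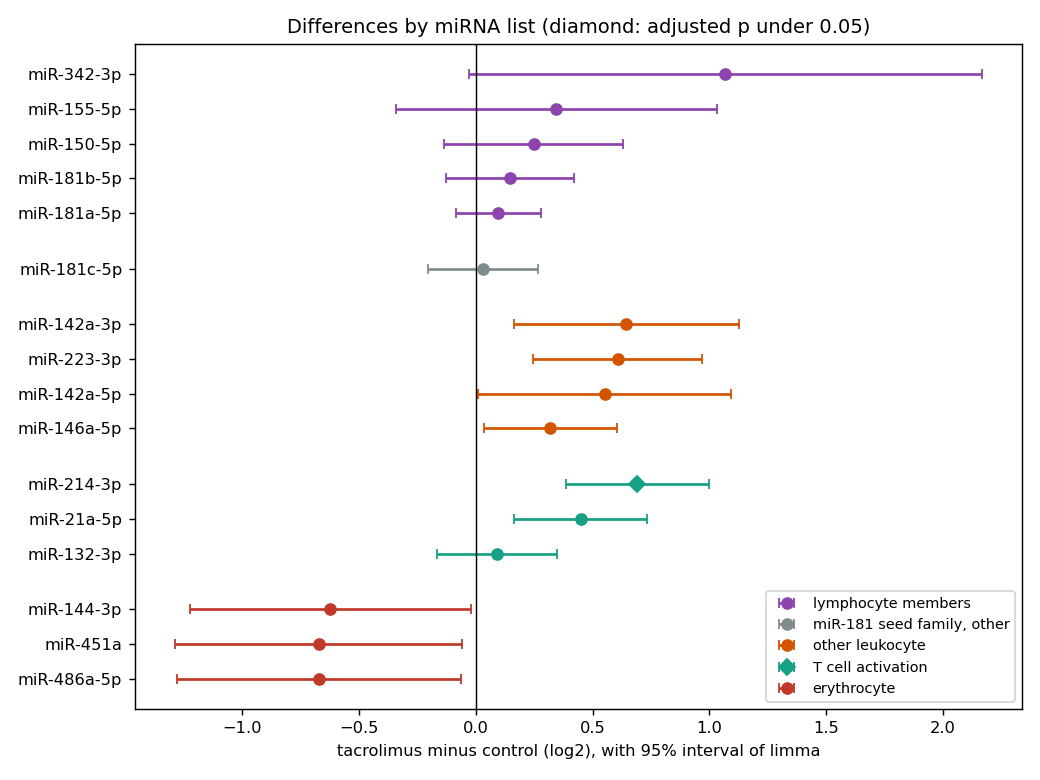
Difference (tacrolimus minus control, log2, horizontal axis) with the 95% interval of limma for the tested lymphocyte miRNAs (purple), miR-181c-5p (grey), other leukocyte miRNAs (orange), further miRNAs linked to T cell activation (green) and erythrocyte miRNAs (red). The diamond marks miR-214-3p, the 1 miRNA shown with an adjusted p under 0.05 (difference 0.69); the intervals of all 5 lymphocyte miRNAs include 0.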

How the data were processed

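Each array's spot intensities were deposited as scanner output, background-subtracted and detrended, per the file headers, by Feature Extraction (10.7.3.1), and not scaled between arrays. The submitters' processing notes name limma without a version. The deposited value table equals the software's total gene signal and served as an alternative. In R 4.3.3, using limma 3.58.1 and the package data.table (1.17.8), spots marked as outliers were left out (7.36% to 11.2% per array) and no spot was saturated (0). Kept spots were averaged per probe, and a probe counted as detected if at least 0.5 of them were well above background. Each array was divided by the 75th percentile over 252 probes that all 8 arrays detected, floored at -5.96 and logged to base 2. A miRNA is its brightest probe, tested if detected on at least 4 arrays (194 tested, 829 not). Groups were compared by limma (two-sided, 9.17 degrees of freedom, no covariate), and p-values were adjusted by Benjamini-Hochberg over the 194. The number of arrays limits the precision. On simulated data for this comparison, with 20 of 194 miRNAs changed by 1 on the log2 scale, 94.95% were recovered. The simulation drew normal noise with no floor, and the share is over miRNAs of all spreads (median within-group SD 0.133). It was not worked out for miR-342-3p (SD 0.846) or miR-155-5p (SD 0.524), so it does not describe them. Members and lists were chosen with earlier results of these data known. All listed miRNAs and, for each member, the 3 most alike by correlation are eligible to be named.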

Additional observations from a re-analysis of the deposited data

Results flagged for a closer look

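Groups of 4 arrays were examined for the tested members, most of the other tested miRNAs on the lists and the miRNAs most like a member. The listed miR-204-5p, miR-10a-5p, miR-30a-5p and miR-126a-3p were not examined. Of the 58 groups, 3 had 1 array whose gap to its nearest neighbour exceeded the critical share of the group's range, where chance gives about 2.9. None of these is a lymphocyte miRNA, though with 4 arrays this rule can miss wide gaps: tacrolimus 4 at -5.47 for miR-342-3p lay well below -4.03, the next lowest tacrolimus array. miR-451a, an erythrocyte miRNA, was at 0.84 on tacrolimus 4, which is -0.39 from the mean of the other tacrolimus arrays. miR-340-5p, the miRNA most like miR-342-3p, was at -4.46 on tacrolimus 4, or -0.25 from the mean of the other 3. miR-27b-3p, the miRNA most like miR-155-5p, was at 0.01 on tacrolimus 3, or 0.0856 from the mean of the other 3. miR-340-5p and miR-27b-3p were examined because they followed miR-342-3p and miR-155-5p over these same arrays. Their flags are therefore not separate from the values of those members, and the count given by chance does not hold for them. The 2 departures on tacrolimus 4 are on the array with the widest negative control spread, and whether these are linked was not tested.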

How the results depend on the processing

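In every alternative run, 0 of the tested lymphocyte miRNAs passed the threshold. The count over all miRNAs, 6 as reported, was 1 with normexp background and 0 with no filter, no scaling, scaling to the percentile of all probes, the mean of probes, total gene signal, trend and robust fitting, the array number as a replicate block, or the median of kept spots (an alternative chosen after seeing the data). It was 8 with median scaling or quantile normalization, 5 with detection on all 8 arrays and 6 with the floor 2 times as high. Leaving out 1 array gave 0 to 6. The count of 1 among T cell activation miRNAs became 0 with normexp and in each setting that gave 0 over all miRNAs, and 0 to 1 without 1 array. Among other leukocyte miRNAs it was 0 to 1, the 1 being miR-223-3p without tacrolimus 3. Signs turned with normexp for miR-150-5p (-0.0519), miR-181a-5p (-0.000135), miR-181b-5p (-0.0387), miR-181c-5p (-0.111) and miR-132-3p (-0.0719), and with total gene signal for miR-181a-5p (-0.0631), miR-181b-5p (-0.0983) and miR-181c-5p (-0.353). miR-181c-5p also turned with median scaling (-0.0432), quantile normalization (-0.0859) and the median of kept spots (-0.00607), and ran from -0.0431 to 0.0835 without 1 array, and miR-132-3p was at -0.00377 with quantile normalization. The cause was not tested. Without 1 array the differences ran over 0.12 to 0.40 for miR-150-5p, 0.09 to 0.56 for miR-155-5p, 0.83 to 1.498 for miR-342-3p, 0.05 to 0.13 for miR-181a-5p and 0.06 to 0.23 for miR-181b-5p. Unscaled signals moved the median of all tested miRNAs to 0.19, against 0.04. Same-numbered arrays also share a column of the slide. Their deviations from the group means correlated at 0.0946 to 0.140, above 0 for every pair but low. The main fit did not take the numbers to pair the samples. With the replicate block, miR-150-5p stood at 0.25 (limma unadjusted p = 0.0235, adjusted p = 0.223, in a range of 0.161 to 0.998 over its alternatives). A floor 2 times as high left miR-150-5p and miR-181c-5p with no values above it, and the second probes of miR-150-5p and miR-155-5p gave no test. Low signal over background limits miR-150-5p, miR-342-3p, miR-342-5p and the undetected other arms.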
